A study of Mus musculus with 10 samples.

Results

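The cytosolic ribosomal protein genes were taken as every protein-coding gene whose GENCODE mouse symbol begins with Rpl or Rps and a digit and holds no hyphen, leaving out the Rps6k kinases, together with Rplp0, Rplp1, Rplp2 and Rpsa. This gave 86 genes of the 41091 gene IDs in the count tables, spread over 19 chromosomes. By symbol alone, 52 (Rpl) were counted as large subunit and 34 (Rps) as small subunit, among these Rps19bp1, which is not a ribosomal subunit. The cells were adherent cultures grown from the olfactory epithelium of adult C57BL6 mice, collected 9 days after methimazole had destroyed the epithelium, and kept in a medium with EGF and FGF2. They were given lentivirus with a short hairpin against Cbx8 (shCBX8, replicates 1, 2 and 6), against Cbx7 (shCBX7, replicates 1, 2 and 5) or with a non-targeting scrambled hairpin (shCTR, replicates 1, 2, 5 and 6), so every library came from lesioned tissue and from transduced cells. The proteins CBX7 and CBX8 belong to Polycomb repressive complex 1 and, through a chromodomain, dock it on methylated histone H3 at silent genes. Total RNA was sequenced with a strand-specific kit. The labels name the replicates biologic, with no word on animals or culture dishes, so the p-values below measure the spread between these libraries, which may be technical. The hairpin sequences are not given in the sources used here.

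Ribosomal proteins coat and fold the ribosomal RNA of the small subunit, which reads the messenger RNA, and of the large subunit, which joins amino acids. Their genes are transcribed at high rates in growing cells. Most of their messenger RNAs start with a C followed by an unbroken run of pyrimidines, the 5′ terminal oligopyrimidine (TOP) motif, through which mTOR signalling controls their translation together. A few have a second gene copy, often with a narrower tissue range than its parent.

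Gene counts per library ran from 22763014 to 50463172. The 3 shCBX8 and 3 shCBX7 libraries had 5.03% to 7.81% unmapped reads, against 9.83% to 21.7% in the 4 shCTR libraries. Cbx8 measured 4.99, 5.14 and 4.71 CPM (counts scaled to the library total) in shCBX8 and 12.4, 15.9, 10.2 and 10.8 CPM in shCTR (log2 fold change -1.31, SE 0.22, edgeR adjusted p = 0.00416). Cbx7 measured 3.64, 8.02 and 13.1 CPM in the libraries labelled shCBX7 and 17.7, 16.4, 13.5 and 5.30 CPM in shCTR, which overlap (-0.67, SE 0.48, adjusted p = 0.929), so its level does not check that label. The horizontal basal cell markers Krt5 and Trp63 were read in every library, whereas the mature neuron marker Omp was at 0.0891 to 0.605 CPM. The summed CPM of 14 fibroblast markers ran from 232 to 3400 in shCBX8, 5800 to 19200 in shCBX7 and 6030 to 34500 in shCTR. That of 8 horizontal basal cell markers ran from 2890 to 6360 in shCBX8, 329 to 1620 in shCBX7 and 360 to 1770 in shCTR. Krt17 alone made up 3310, 1710 and 5020 CPM of this in shCBX8. Krt14, Krt15, Trp63 and Itgb4 were also above shCTR in every shCBX8 library, whereas Krt5 and Itga6 overlapped. Icam1 was lower in shCBX8 replicates 1 and 6 than in any shCTR library. Of the fibroblast markers 3 of 14 (21.4%) fell in shCBX8 against shCTR and none rose, and of the basal cell markers 2 of 8 (25%) rose and none fell, where 32.9% of all genes tested passed. With the replicate number as a block, 13 of the 14 fibroblast markers fell, where 36.2% of all genes were called. Without shCBX8 replicate 2 the count was 12 (35.6%). It was 1 without shCBX8 replicate 1 (13.1%) or replicate 6 (13.2%). The macrophage markers summed to 100 to 179 CPM in shCBX8, 17.4 to 63.7 CPM in shCBX7 and 31.4 to 50.2 CPM in shCTR. Cd14 alone made up 159, 91.2 and 137 CPM of this in shCBX8. Cd68 and Aif1 were also above shCTR, whereas Ptprc, Csf1r and Adgre1 overlapped it and C1qb was lower. The part of these markers and of the unmapped reads in the values below was not tested. In such bulk samples, fewer cells of a type and less RNA per cell cannot be told apart.

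Promoter sequences were at hand for 66 of the 86 genes, from RefSeq on build GRCm38.p6, each covering 250 bases before to 50 bases after the annotated start. An unbroken run of at least 8 pyrimidines (C or T, on the gene's strand) lay within 50 bases of the start in 77.3% of the 66, against 35.7% of all 27025 genes in that table. The letters CCGGAA, the core bound by ETS factors, occurred on either strand in 33 of the 66 promoters and in 15.2% of all, while the E-box CACGTG occurred in 7.58% and 7.24%, and TATAAA in 9.09% and 14.2%. The windows below, 40 bases before to 20 bases from the annotated start, are shown for Rps6 and Rpl5, members without a copy here, and for copies and parents, among which are the 3 members with the largest spread within groups (Rpl39l, Rpl22l1 and Rps27). Capitals mark the longest pyrimidine run near the start, and the first of them where more than 1 has that length, as in Rps27l. They lie at chr4:86857348-86857407 (minus strand, Rps6), chr5:107900488-107900547 (plus, Rpl5), chr3:90213629-90213688 (minus, Rps27), chr9:66946046-66946105 (plus, Rps27l), chr4:152325686-152325745 (plus, Rpl22), chr3:28805468-28805527 (plus, Rpl22l1) and chr16:10170188-10170247 (plus, Rpl39l).
Rps6: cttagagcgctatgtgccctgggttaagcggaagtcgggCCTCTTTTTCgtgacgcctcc
Rpl5: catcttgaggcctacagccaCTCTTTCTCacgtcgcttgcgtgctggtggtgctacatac
Rps27: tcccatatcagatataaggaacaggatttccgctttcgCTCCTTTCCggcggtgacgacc
Rps27l: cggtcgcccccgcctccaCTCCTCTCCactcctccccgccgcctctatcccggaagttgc
Rpl22: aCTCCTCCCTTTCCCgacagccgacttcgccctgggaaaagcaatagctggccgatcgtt
Rpl22l1: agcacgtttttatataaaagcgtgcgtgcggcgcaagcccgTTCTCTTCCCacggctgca
Rpl39l: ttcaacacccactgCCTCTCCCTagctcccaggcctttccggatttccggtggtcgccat

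Of the 86 genes, 83 had enough counts to be tested. On the CPM scale 17 of them averaged at least 500 CPM over the 10 libraries, 75 at least 100 CPM and 81 at least 20 CPM. Per kilobase of exon the highest level was that of Rplp1, an acidic protein of the stalk that recruits elongation factors, at 1660 CPM per kb. It was followed by Rplp0, the base of the stalk, at 668 CPM per kb, then Rpl4 at 573, Rps15 at 541 and Rpl32 at 481 CPM per kb. The length is that of all annotated exons joined, such as 499 bases for Rplp1 and 6270 for Rps15a. Multimapping reads were not counted, and 56 of the 86 members have named pseudogenes. The ranks, and the per-kilobase shares of copies below, are corrected for neither. The lowest of the 83 was Rpl24 at 0.926 CPM per kb. Since 47.0% of its exon bases also belong to Gm28037 on the same strand, and reads in 2 genes were not counted, that value is not a level of the Rpl24 transcript. Rpl13a shared 33.3% of its exon bases with another gene in the same way, and 6 further members shared between 10.1% and 14.5%.

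The 3 untested genes were copies with few reads. Rps27rt, a retrogene of Rps27, had 82 counts over the 10 libraries. Rpl3l, which stands in for Rpl3 in mouse heart and skeletal muscle, had 29 counts, and Rpl10l, which stands in for the X-linked Rpl10 during mouse spermatogenesis, had 10 counts. Rpl3l measured 0.0601 to 0.0838 CPM in shCBX8, 0 to 0.0713 CPM in shCBX7 and 0.0792 to 0.25 CPM in shCTR, while 7 skeletal muscle markers summed to 20.1 to 68.4 CPM in shCBX8, 1.39 to 2.45 CPM in shCBX7 and 1.64 to 3.37 CPM in shCTR. Acta1 alone made up 35.5, 17.2 and 60.5 CPM of that sum in shCBX8, where Myog, Myod1 and Ckm were at 0.251 CPM or less. Mylpf measured 2.98, 1.71 and 2.67 CPM in shCBX8 and 0.259 to 0.676 CPM in shCTR, while Des and Tnnt1 overlapped shCTR. Of the 4 muscle markers tested, 2 (50%) rose in shCBX8 against shCTR and none fell, where 32.9% of all genes passed.

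The share of gene counts taken by the 86 genes overlapped between the groups. It was 3.17%, 3.67% and 3.02% in shCBX8, 2.96%, 2.66% and 3.17% in shCBX7 and 3.02%, 2.53%, 3.20% and 2.45% in shCTR. The mean shares were 3.28 ± 0.342% in shCBX8 (SD, n = 3), 2.93 ± 0.258% in shCBX7 (n = 3) and 2.80 ± 0.367% in shCTR (n = 4). After scaling by the trimmed mean of M values (TMM), the summed level was 29038, 34931 and 27017 CPM in shCBX8, 31429, 27728 and 30594 CPM in shCBX7 and 31697, 28869, 31509 and 24954 CPM in shCTR. The ratio of large to small subunit CPM was 1.41, 1.42 and 1.42 in shCBX8, 1.44, 1.45 and 1.38 in shCBX7 and 1.38, 1.39, 1.39 and 1.49 in shCTR.

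**Figure D1:**
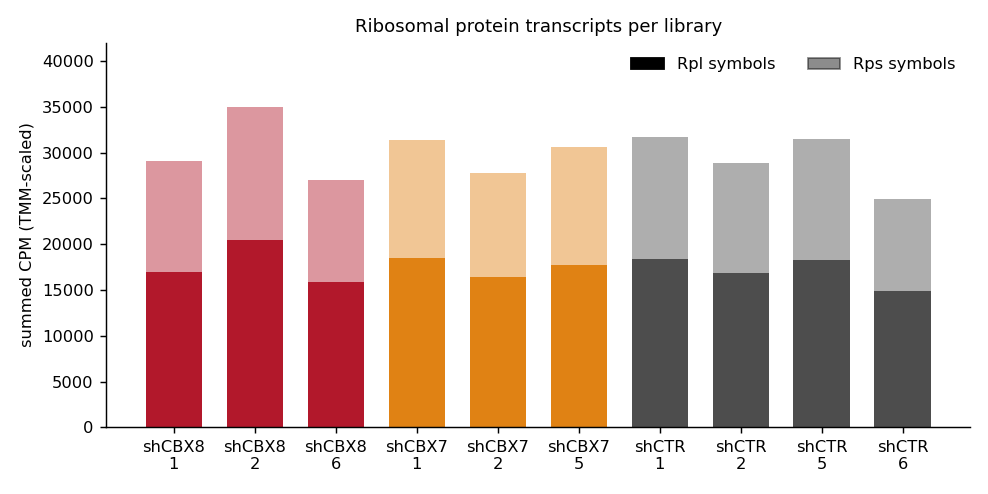
Summed TMM-scaled CPM of the 86 ribosomal protein genes in each of the 10 libraries; the dark part of a bar is the Rpl symbols and the pale part the Rps symbols, with shCBX8 in red, shCBX7 in orange and shCTR in grey. The bars run from 24954 CPM in shCTR replicate 6 to 34931 CPM in shCBX8 replicate 2, and the groups overlap.

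The members moved up and down together between libraries of the same group. For each gene the deviation from its shCTR mean was taken as log2(CPM + 1). Its median over the 83 genes was 0.00, 0.25 and -0.11 in shCBX8 replicates 1, 2 and 6, 0.12, -0.06 and 0.07 in shCBX7 replicates 1, 2 and 5, and 0.12, 0.00, 0.12 and -0.23 in shCTR replicates 1, 2, 5 and 6. The median over all genes tested stayed between -0.04 and 0.01 in the 10 libraries, as TMM scaling holds it near 0 by design. In shCBX8 replicate 2, 78 of the 83 genes were above their shCTR mean, and 51 had their highest level there. In shCTR replicate 6, 8 of the 83 were above the shCTR mean, and 50 had their lowest level there. Among the 81 genes of at least 20 CPM, the median correlation between a pair of genes over the 10 libraries was 0.63, and it was 0.77 after each group's mean was removed (3240 pairs; the genes share libraries and scaling, so this is a description). The members least like the others were Rps19bp1, which encodes a nucleolar partner of the Rps19 protein and not a ribosomal subunit, with a median r of -0.08, then Rpl41 at 0.12 and Rpl7l1, a protein related to Rpl7, at 0.16.

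**Figure D2:**
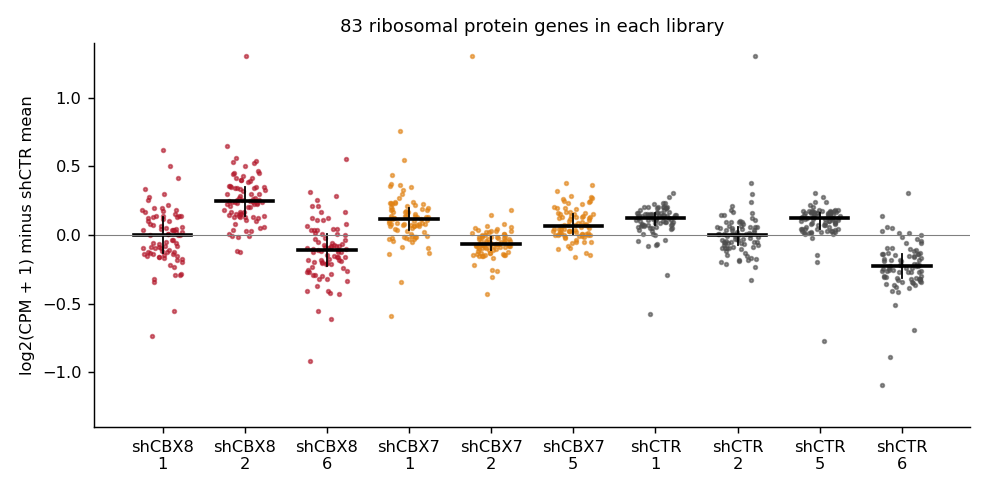
Each point is 1 of the 83 tested genes, placed by log2(CPM + 1) minus its shCTR mean (vertical axis) in each library (horizontal axis); thick lines are medians and thin lines the middle of the distribution from the first to the third quartile, and points beyond 1.3 are drawn at 1.3. The cloud as a whole lies highest in shCBX8 replicate 2 (median 0.25) and lowest in shCTR replicate 6 (median -0.23).

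In shCBX8 against shCTR, which sets the hairpin against Cbx8 beside the scrambled one, 1 ribosomal protein gene rose and none fell. edgeR's quasi-likelihood test called Rps20 alone of the 83 (1.2%) at an adjusted p under 0.05, whereas it called 32.9% of the 16669 genes tested. Under the same test with the replicate number as a block it called 3 of the 83, Rps20 and Rpl36al among them, all higher in shCBX8. That fit called 36.2% of all genes. The 3 shCBX8 libraries did not overlap the 4 shCTR libraries for 8 of the 83 genes (9.64%), 7 of them higher and 1 lower, against 42.4% of all genes tested. An unadjusted p under 0.05 was met by 5 of the 83 (6.02%), against 45.5% of all. Scaling by library size alone gave 7 calls, all higher, where 33.6% of all genes were called. It also moved the median of all genes to 0.17, against -0.01 with TMM, and the share of higher genes among all calls to 67.2%, against 51.6%. The members' median was 0.23 under that scaling.

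The fold changes of the 83 genes were small and their intervals narrow. The median log2 fold change of shCBX8 over shCTR was 0.05 for the members and -0.01 for all genes tested, with 51 members above 0 and 32 below. It lay between -0.25 and 0.25 for 71 of the 83 (85.5%), against 27.4% of all genes, and between -0.5 and 0.5 for 81 (97.6%), against 48.1%. The 95% interval lay wholly between -1 and 1 for 82 of the 83 (98.8%), Rpl39l being the exception, against 41.7% of all genes, and wholly between -0.5 and 0.5 for 58. The median half-width of the interval was 0.34 for the members and 0.61 for all genes. However, 81 of the 83 members averaged at least 20 CPM, against 7872 of the 16669 genes. These shares are therefore not matched for level, whose part was not tested. Genes with Rpl symbols had a median of 0.05 (50 genes) and genes with Rps symbols one of 0.09 (33 genes, Rps19bp1 among them). The median SD of log2 level within a group was 0.18 for the members and 0.22 for the 7872 genes of at least 20 CPM. The median of the members turned to -0.08 without shCBX8 replicate 2 and to -0.02 without shCTR replicate 6, the libraries at the ends of the distribution.

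**Figure D3:**
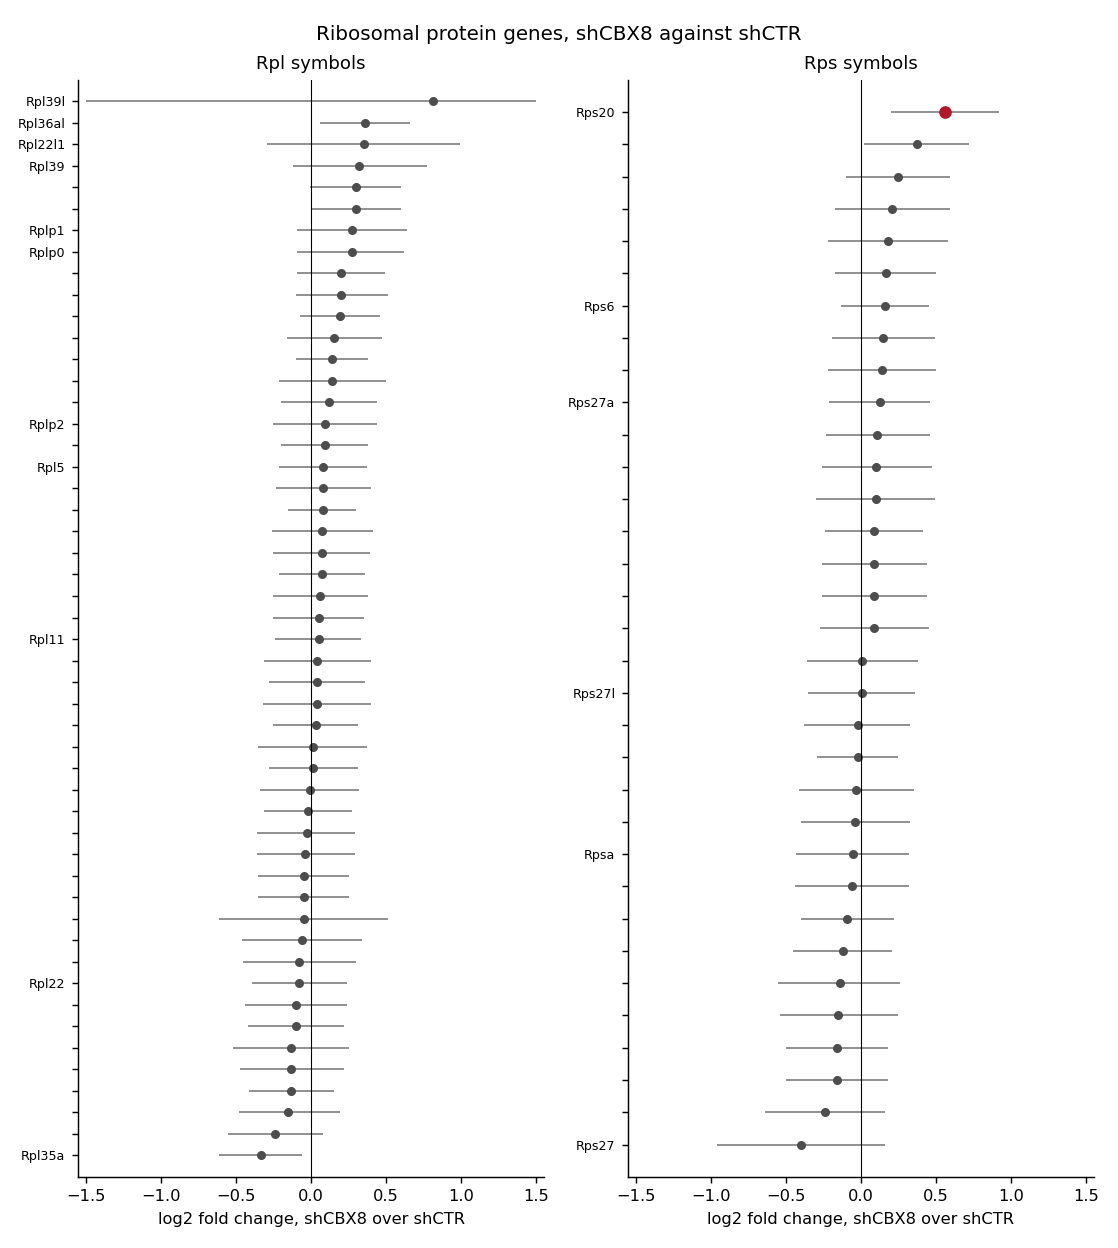
Log2 fold change of shCBX8 over shCTR (points) with its 95% interval (lines) for each tested gene, Rpl symbols on the left and Rps symbols on the right, sorted by fold change; the red point passed an adjusted p of 0.05, and intervals are cut off at -1.5 and 1.5. Names are given for the genes the text describes most. Rps20 at 0.56 is the only red point, and only the interval of Rpl39l leaves the plot.

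Rps20, a protein of the head of the small subunit (ENSMUSG00000028234, chromosome 4), measured 822, 788 and 784 CPM in shCBX8, 622, 518 and 624 CPM in shCBX7 and 627, 513, 603 and 419 CPM in shCTR. All 3 shCBX8 libraries were above all 7 others. The log2 fold change was 0.56 against shCTR (SE 0.16, 95% interval 0.20 to 0.92, edgeR adjusted p = 0.0277) and 0.44 against shCBX7 (SE 0.17, adjusted p = 0.0841). The call against shCTR was lost without shCBX8 replicate 1 (adjusted p = 0.0889), without shCBX8 replicate 6 (0.0767), without shCTR replicate 2 (0.0632), without all libraries numbered 2 (0.0634), without shCTR replicates 1 and 2 (0.0720) and when shCBX7 was kept out of the fit (0.0527). Over all 25 alternatives the log2 fold change stayed between 0.46 and 0.74, with 19 past the threshold and an adjusted p of 0.00312 to 0.0889. Relative to the other ribosomal protein genes of the same library, a scaling chosen after seeing the data, it was 0.53 (SE 0.16, adjusted p = 0.0336).

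Rpl36al, an autosomal copy of the X-linked Rpl36a, measured 45.0, 44.1 and 40.1 CPM in shCBX8 and 33.4, 32.8, 37.9 and 30.0 CPM in shCTR. The groups did not overlap, and the log2 fold change was 0.36 (SE 0.13, adjusted p = 0.0616; with the replicate block 0.41, adjusted p = 0.0431; 0.0213 to 0.235 over the 25 alternatives, with 5 past the threshold). For the parent Rpl36a the log2 fold change was 0.20 (SE 0.14, adjusted p = 0.272).

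Rpl35a, a large-subunit protein mutated in some patients with Diamond-Blackfan anaemia, was the member with the smallest p among those lower in shCBX8. It measured 107, 120 and 85.4 CPM in shCBX8, 130, 131 and 137 CPM in shCBX7 and 137, 132, 134 and 122 CPM in shCTR. Each shCBX8 library was below each of the 7 others, by a small margin for replicate 2. The log2 fold change was -0.33 against shCTR (SE 0.12, adjusted p = 0.0632) and -0.35 against shCBX7 (SE 0.13, adjusted p = 0.0726). Relative to the other ribosomal protein genes it was -0.40 against shCTR (SE 0.13, adjusted p = 0.0481), and without shCBX8 replicate 2 it was -0.45 (adjusted p = 0.0232). Its adjusted p against shCTR ran from 0.0232 to 0.372 over the 25 alternatives, with 6 past the threshold.

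Among parents and copies, Rps27 and Rps27l encode near-identical small-subunit proteins, and Rps27l is induced by p53 in human cells. Rps27 measured 277, 408 and 277 CPM in shCBX8, 320, 329 and 364 CPM in shCBX7 and 468, 528, 441 and 251 CPM in shCTR, where replicate 6 was below every shCBX8 library. Its log2 fold change of -0.40 in shCBX8 against shCTR (SE 0.25) did not pass the test (adjusted p = 0.243), but without shCTR replicate 6 it was -0.58 (adjusted p = 0.0390), the only 1 of 25 alternatives past the threshold (0.0390 to 0.762). Rps27l measured 255, 220 and 204 CPM in shCBX8 and 260, 197, 263 and 181 CPM in shCTR (0.01, SE 0.16, adjusted p = 0.975). Per kilobase of exon, Rps27l made up 54.1%, 40.8% and 48.5% of the pair in shCBX8, 46.7%, 44.4% and 44.6% in shCBX7 and 41.5%, 32.3%, 43.2% and 48.0% in shCTR, which overlap.

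Rpl22l1, the copy of the large-subunit gene Rpl22, measured 95.9, 92.8 and 84.1 CPM in shCBX8, 44.6, 49.8 and 73.9 CPM in shCBX7 and 83.8, 83.5, 82.1 and 36.1 CPM in shCTR. The shCBX8 libraries were above all others by a narrow margin over 3 of the shCTR libraries, and shCTR replicate 6 was the lowest of all 10. Its log2 fold change was 0.35 against shCTR (SE 0.29, adjusted p = 0.368) and 0.70 against shCBX7 (SE 0.31, 95% interval 0.00 to 1.39, adjusted p = 0.116; without shCTR replicate 6, 0.70 and adjusted p = 0.0235; 0.0235 to 0.302 over the 25 alternatives, with 2 past the threshold). Rpl22 itself measured 308, 358 and 266 CPM in shCBX8, 324, 317 and 343 CPM in shCBX7 and 363, 325, 344 and 279 CPM in shCTR. Per kilobase, Rpl22l1 made up 31.3%, 27.5% and 31.6% of the pair in shCBX8, 16.8%, 18.7% and 24.0% in shCBX7 and 25.2%, 27.3%, 25.9% and 15.9% in shCTR. The shCBX8 shares were above all others, with exact two-sided permutation p = 0.0571 against shCTR and p = 0.100 against shCBX7, the smallest values that these group sizes allow. Both came to 0.617 after Benjamini-Hochberg adjustment over 18 tests (6 pairs, 3 comparisons). The pairs include Rps19bp1 with Rps19, matched by symbol, although Rps19bp1 is not a copy.

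Rpl39l, the copy of Rpl39 that is expressed in mouse male germ cells, was highest in the library numbered 2 of every group. It measured 15.2 CPM in shCBX8 replicate 2, 4.99 CPM in shCBX7 replicate 2 and 11.2 CPM in shCTR replicate 2, from 507, 168 and 224 counts. The other libraries had 0.356 and 0.194 CPM in shCBX8, 2.80 and 1.33 CPM in shCBX7 and 0.515, 0.320 and 0.0576 CPM in shCTR. Its SD of log2 level within groups, 1.60, was the largest of the 83. The fibroblast markers were also highest in replicate 2 of each group, summing to 3400 CPM in shCBX8, 19200 CPM in shCBX7 and 34500 CPM in shCTR; their part in the Rpl39l level was not tested. Its log2 fold change of shCBX8 over shCTR was 0.81 (SE 1.69, adjusted p = 0.736), but -3.42 without shCBX8 replicate 2, 4.13 without shCTR replicate 2 and 4.79 without shCTR replicates 1 and 2, with none of 25 alternatives past the threshold (adjusted p 0.0927 to 0.969). That of shCBX8 over shCBX7 was 0.79 (SE 1.82, adjusted p = 0.770), but without the 3 libraries numbered 2 it was -2.91 (adjusted p = 0.0281), the only 1 of 25 alternatives past the threshold (0.0281 to 0.900), and without shCBX8 replicate 2 alone it was -3.46. The parent Rpl39 measured 353, 458 and 305 CPM in shCBX8, 305, 284 and 272 CPM in shCBX7 and 320, 338, 326 and 204 CPM in shCTR.

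Rpl7l1 measured 119, 115 and 113 CPM in shCBX8 and 102, 97.9, 110 and 109 CPM in shCTR, which did not overlap but differed little (0.14, SE 0.11, adjusted p = 0.342). For its parent Rpl7 the log2 fold change was -0.10 (SE 0.15, adjusted p = 0.639). Rps19bp1 had one of 0.18 (SE 0.18, adjusted p = 0.452), against -0.24 for Rps19 (SE 0.18, adjusted p = 0.325).

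**Figure D4:**
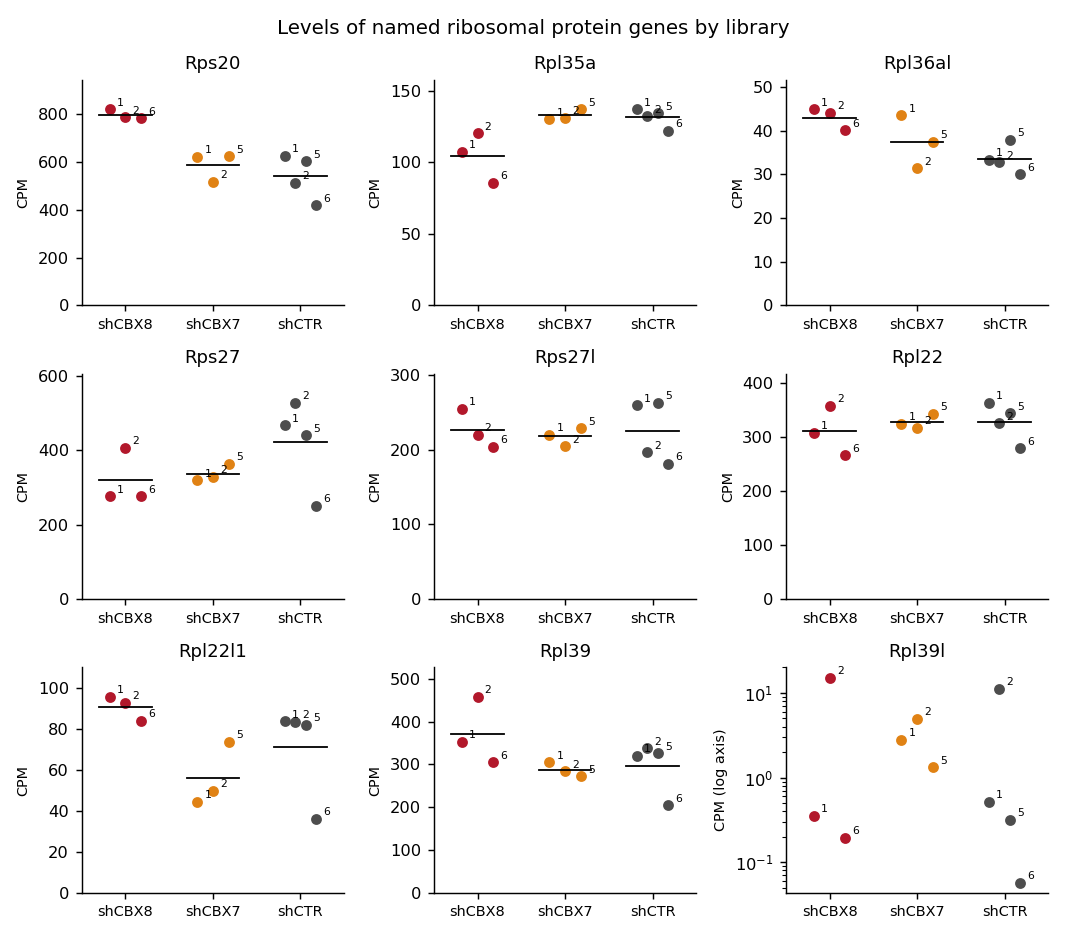
CPM of 9 named genes in each library, with the replicate number beside each point and the group mean as a line; the axes start at 0 except for Rpl39l, which is on a log axis with no mean drawn. The 3 shCBX8 libraries lie above the other 7 for Rps20 and below them for Rpl35a, and for Rpl39l the library numbered 2 is the highest of each group.

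The members with special roles did not pass the test. The stalk proteins Rplp0, Rplp1 and Rplp2 had log2 fold changes of 0.27 (SE 0.16), 0.27 (SE 0.16) and 0.09 (SE 0.15) in shCBX8 against shCTR. Rpsa, which also serves as a precursor of the laminin receptor, had one of -0.05 (SE 0.17). Rps27a, translated as a fusion with ubiquitin, had one of 0.13 (SE 0.15), and Rps6, the substrate of the S6 kinases, one of 0.16 (SE 0.13). Rpl5 and Rpl11, which bind Mdm2 when they are free of the ribosome, had 0.08 (SE 0.13) and 0.05 (SE 0.13). The 95% interval of each of these 8 lay between -0.43 and 0.64, so a change of 2-fold in either direction lies outside them.

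In shCBX7 against shCTR none of the 83 genes was called by edgeR, where 0% of all genes tested were called. DESeq2 also called none of the 83, and its share over all genes in this comparison is not given here. The unadjusted p was under 0.05 for 1 gene (1.2%), against 5.85% of all genes, and the groups did not overlap for the same gene, against 5.42% of all. This was Rpl27, a large-subunit protein, at 170, 132 and 138 CPM in shCBX7 and 121, 114, 130 and 102 CPM in shCTR (0.33, SE 0.14, adjusted p = 0.799). Rpl13 had a log2 fold change of 0.24 (SE 0.15) and Rps28 one of 0.25 (SE 0.17). On the lower side were Rpl22l1 at -0.35 (SE 0.29), Rps27 at -0.32 (SE 0.25) and Rpl17 at -0.13 (SE 0.14), each with an adjusted p of 0.929 or more. The median of the 83 was 0.03, against 0.00 for all genes, and 80 of the 83 (96.4%) lay between -0.25 and 0.25, against 61.4% of all genes. These values rest on the same shCTR libraries as those for shCBX8.

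In shCBX8 against shCBX7, edgeR likewise called none of the 83 genes, against 28.6% of all genes tested. DESeq2 called 2, Rps20 and Rpl35a, and its share over all genes in this comparison is not given here. An unadjusted p under 0.05 was met by 3 genes, against 42.7% of all. The groups did not overlap for 6 of the 83 (7.23%), against 48.2% of all. Of these, 5 were higher in shCBX8, among them Rps20, Rpl22l1, Rpl39 and Rpl41, and Rpl35a was lower. Rps2 had the second smallest p among the lower genes, at 387, 479 and 364 CPM in shCBX8 and 546, 452 and 507 CPM in shCBX7 (-0.29, SE 0.16, adjusted p = 0.181). The median log2 fold change was 0.01 for the members and 0.00 for all genes.

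Other parts of the translation machinery were read in the same fit, in lists chosen with earlier results of these data known. Of the 210 genes of these 9 lists that could be tested, 62 (29.5%) passed in shCBX8 against shCTR, near the 32.9% of all genes tested. In shCBX8 against shCBX7 36 passed (17.1%), against 28.6% of all genes, and in shCBX7 against shCTR none did. Of the 3 ribosomal protein genes whose symbols fall outside the rule, none passed. Fau and Rack1 had log2 fold changes of -0.01 (SE 0.13) and -0.14 (SE 0.17) in shCBX8 against shCTR. Of 45 ribosome biogenesis factors, 16 (35.6%) rose and none fell (median 0.49). They include Npm1, the abundant nucleolar chaperone, at 1150, 938 and 922 CPM in shCBX8 and 466, 374, 621 and 561 CPM in shCTR (0.99, SE 0.20, adjusted p = 0.00853). Pno1, needed to mature the small subunit, had a log2 fold change of 1.13 (SE 0.21) and Imp4, of the small-subunit processome, one of 0.86 (SE 0.17). With the replicate block 22 rose and 1 fell, where 36.2% of all genes were called. By library size alone 23 rose (33.6%), and with DESeq2 20 rose (40.8%). The count of rises was 4 without shCBX8 replicate 1 or replicate 6, where 13.1% and 13.2% of all genes were called. Without shCTR replicate 1 it was 5 (24.2%), and without shCTR replicate 2 it was 6 (26.1%). Any other single library left out gave 11 to 20 rises (24.4% to 35.6%). The count was 2 without shCTR replicates 1 and 2 (14.3%) and 5 when scaled on the ribosomal protein genes (25.5%).

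Of 34 initiation factors, 7 (20.6%) rose and none fell (median 0.13), among them Eif4a1, the RNA helicase of the cap-binding complex, at 831, 636 and 760 CPM in shCBX8 and 390, 370, 468 and 450 CPM in shCTR (0.82, SE 0.17, adjusted p = 0.00768). Eif3g and Eif2s2 had log2 fold changes of 0.76 (SE 0.15) and 0.64 (SE 0.13). Of 9 genes listed as elongation and termination factors, 4 rose (median 0.33), among them Etf1 at 0.57 and Eef1b2 at 0.43. Eef1e1, whose place in that list rests on its symbol, was also among the 4 (0.87). Of 18 other messenger RNAs known to carry the TOP motif, 3 rose and none fell (median 0.11): Npm1, Naca at 0.57 (SE 0.13) and Eef1b2, 2 of which other lists also hold. The chaperones of newly made ribosomal proteins gave 2 rises of 6, Pdcd2 at 0.59 and Pdcd2l at 0.44. Of 76 mitochondrial ribosomal protein genes, 22 rose and 2 fell (median 0.24), 31.6% in all, with Mrpl44 at 0.74, Mrps22 at 0.85 and Mrpl48 at -0.75. These counts moved with single libraries and with the scaling. The mitochondrial genes gave 39 rises by library size alone, 31 with DESeq2, 19 with the replicate block, 4 without shCBX8 replicate 1, 5 without shCBX8 replicate 6, 8 without shCTR replicate 2, 9 without shCTR replicate 1 and 13 to 22 without any other library. The initiation factors gave 12 rises by library size alone, 9 with the block, 3 without shCBX8 replicate 1 and 5 to 10 without any other library. The elongation and termination factors gave 5 rises by library size alone, 0 without shCBX8 replicate 1 and 1 to 3 without any other library. When scaled on the ribosomal protein genes (25.5% of all genes called), the mitochondrial genes gave 3 rises and the initiation factors 3. The elongation and termination factors gave 1 under that scaling. Without shCTR replicates 1 and 2 (14.3%), the mitochondrial genes gave 3 rises, the initiation factors 0 and the elongation and termination factors 0.

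Among 14 RNA polymerase I subunits and factors, which make the ribosomal RNA precursor, 2 rose and 2 fell (median 0.33), with 5 rising and 2 falling under the replicate block. The polymerase subunits Twistnb and Cd3eap rose, by 0.95 (SE 0.14) and 0.97 (SE 0.18), and Ubtf, which binds the ribosomal DNA, fell (-0.73, SE 0.11, adjusted p = 0.00263). Of 19 mTOR and Myc regulators, 1 rose and 3 fell (median -0.13, but 0.06 when scaled by library size alone), with 2 rising and 4 falling under the replicate block and 1 to 6 falling when a library was left out. Mycn measured 0.775, 1.23 and 0.538 CPM in shCBX8 and 6.97, 5.46, 15.3 and 6.48 CPM in shCTR (-3.34, SE 0.46, adjusted p = 0.00225). Rps6kb1, an S6 kinase, fell (-0.50, SE 0.11) and Mxi1, an antagonist of Myc, rose (0.95, SE 0.20). No test set these lists against the ribosomal protein genes.

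**Figure D5:**
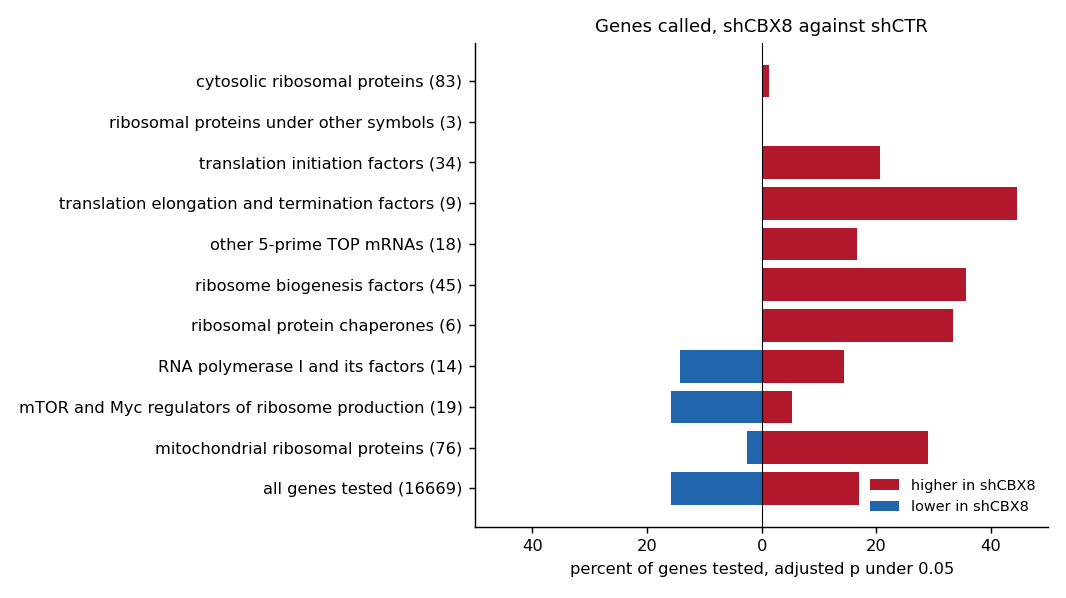
Percent of tested genes with an edgeR adjusted p under 0.05 in shCBX8 against shCTR, by list, higher to the right and lower to the left, with the number tested in brackets. The bar of the 83 cytosolic ribosomal protein genes is 1.2% long, and that of all 16669 genes adds up to 32.9%.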

How the data were processed

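The authors' deposited files are gene count tables, 1 per library, with unstranded, forward and reverse columns, made with STAR 2.5.0a after Trim Galore 0.4.3 on mm10, per the submitters' processing notes. The reverse-strand counts were used, because the kit is stranded and the forward column held 3.42% to 10.4% of both. Rows naming no gene (unmapped, multimapping, no feature, ambiguous) were left out; multimapping took 15.4% to 22.1% of reads and no feature 12.5% to 23.6%. Of 41091 gene IDs, 40217 matched GENCODE M21.

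edgeR 4.0.16 in R 4.3.3 fitted all 10 libraries with group as the only factor (filterByExpr, minimum count 10, TMM scaling, quasi-likelihood test, Benjamini-Hochberg adjustment over 16669 genes, threshold 0.05). CPM are TMM-scaled, and 95% intervals come from the fit. The steps were tested on simulated data. DESeq2 1.42.0, other scalings, filters, strands, a replicate block and left-out libraries were tried as alternatives. Deviations of same-numbered shCBX8 and shCTR libraries over all genes had r = 0.23, 0.29 and 0.13. Unlike numbers had -0.32 to 0.18, which overlaps, so the pairing is not settled. The block result is still given beside counts and genes of that comparison whose calls it moves. Replicates of a group differed beyond sampling noise (chi-square per degree of freedom 25.5 or more). The members and lists were chosen with earlier results of these data known. Named genes were, per comparison and direction, up to 5 members past the threshold or else the 3 of smallest p, the 5 highest per kb, the stalk genes and Rpsa, copies with their parents, Rps27a, Rps6, Rpl5 and Rpl11, and up to 3 per other list; Rpl41, Rpl24, Rpl13a, Rps3 and the small nucleolar RNA genes were named after their values were seen. Some genes that this rule would name are not reported here.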

Additional observations from a re-analysis of the deposited data

Results flagged for a closer look

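Each value below lies far from the other 3 shCTR libraries for its spread (Dixon's ratio above its 95% critical value for 4 samples). The test was applied to 36 quantities in shCTR, and chance alone flags about 1 in 20 of such groups; the quantities share their libraries. Of the 5 that stood apart, 4 come from shCTR replicate 6. In that library Rpl22l1 measured 36.1 CPM, against 82.1 to 83.8 CPM in the other 3. Rps15 measured 294 CPM there, against 374 to 383 CPM. Rpl39 measured 204 CPM there, against 320 to 338 CPM. The ratio of large to small subunit CPM was 1.49 there, against 1.38 to 1.39. In shCTR replicate 2, Rpl39l measured 11.2 CPM, against 0.0576 to 0.515 CPM in the other 3.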

How the results depend on the processing

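Of the 83 tested genes, 34 were followed one by one under 25 alternatives in the 3 comparisons, and 24 of them kept every call. Of the 2550 values, 2516 kept their side of the threshold, 27 passed it newly, 6 lost it and 1 reversed: Rpl39l in shCBX8 against shCBX7 was -2.91 without the libraries numbered 2; the cause was not tested. In shCBX8 against shCTR the call count was 1, where 32.9% of all genes were called. It was 7 by library size alone (33.6% of all genes), 3 with DESeq2 (40.8%) and 3 with the replicate block (36.2%). It was 2 each at a mean of at least 1 CPM, with unstranded counts and with forward-strand counts subtracted. The count was also 2 without the 10 most abundant genes and relative to the other ribosomal protein genes. Those fits with 2 called 25.5% to 36.9% of all genes. It was 0 with only the 2 groups compared (31.4%), without shCTR replicates 1 and 2 (14.3%), and at a threshold of 0.01 (11.1%). Leaving out each library in turn gave 0 to 2, where 13.1% to 35.6% of all genes were called. In shCBX8 against shCBX7 the call count was 0, where 28.6% of all genes were called. It was 2 by library size alone, 2 with DESeq2, 4 with the replicate block and 4 without the libraries numbered 2. Leaving out a library gave 0 to 2. The shares of all genes called in these alternative fits are not given here, so the counts cannot be set against them. In shCBX7 against shCTR the call count was 0 throughout. The replicate numbers did not all pair shCBX7 with shCTR by the check used (r = -0.07, 0.76 and 0.41 for numbers 1, 2 and 5). Numbers 2 and 5 were above their unlike-numbered pairs, and number 1 was not. For shCBX8 and shCBX7 too few numbers are shared for that check. Calls in the other translation lists, 62 in shCBX8 against shCTR, numbered 72 with the replicate block, 94 by library size alone and 18 to 66 with a library left out; the 36 in shCBX8 against shCBX7 numbered 6 to 42. The share of gene counts was 3.59% in shCBX8, 3.21% in shCBX7 and 3.21% in shCTR without the 10 most abundant genes. The scaling on ribosomal protein genes and the fit without libraries numbered 2 were chosen after seeing the data. Depth limits Rps27rt, Rpl3l and Rpl10l, which could not be tested.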

Other observations

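Introns of ribosomal protein genes also carry small nucleolar RNA genes, whose products guide the modification of ribosomal RNA. On the same strand, 58 such genes lay inside 30 of the 86 members. Some of these share annotated exon bases with their host, such as Snora70 with Rpl10. Reads falling in both were not counted, so a count of 0, as for Snora70, is not a level of the RNA. Counts were found for 39 of the 58, and 35 could be tested. In shCBX8 against shCTR 1 (2.86%) rose and none fell, against 32.9% of all genes called (median log2 fold change 0.33). In shCBX8 against shCBX7 2 (5.71%) rose, against 28.6% of all genes called, and in shCBX7 against shCTR none was called by edgeR. Snord15a, inside Rps3, measured 11.5, 11.2 and 7.33 CPM in shCBX8, 6.24, 5.38 and 4.66 CPM in shCBX7 and 6.41, 5.26, 5.66 and 4.98 CPM in shCTR, so that the shCBX8 libraries lay above all others. Its log2 fold change was 0.85 against shCTR (SE 0.21, edgeR adjusted p = 0.0170) and 0.89 against shCBX7 (SE 0.23, adjusted p = 0.0214). Its host Rps3 measured 969, 1120 and 886 CPM in shCBX8, 986, 876 and 965 CPM in shCBX7 and 971, 851, 952 and 761 CPM in shCTR. Snora7a, inside Rpl32, also rose against shCBX7 (0.84, SE 0.27, adjusted p = 0.0445). Reads of the unspliced host inside such a gene cannot be told apart from its own.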
